A study of Bos taurus with 111 samples.

Results

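Skeletal muscle of Holstein-Friesian (HF) steers was compared between dietary phases. H1 was a growing period on a high concentrate diet, and ZG was a later period on zero-grazed grass. Members were the RNA-seq libraries that the labels give as breed HF with diet H1 or ZG. They numbered 41 of the 111 libraries in the series, and 39 were used, of which 20 were H1 and 19 were ZG. In H1 the steers ate a barley-based concentrate freely, and grass silage was rationed. The ZG diet was cut, unchopped grass from swards dominated by Lolium perenne, offered ad libitum. Biopsies of the M. longissimus thoracis et lumborum were taken at the end of each feed intake test of 70 d. HF steers were 306 d old (SD 7.7) at the start of the first test, and weighed 294 kg (SD 42.3) at the start of H1 and 441 kg (SD 39.2) at the start of ZG. The change of diet and the growth between these times coincide in every steer, and their parts in any difference cannot be told apart.

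Each library came from 1 steer, chosen as extreme for high (H-RFI) or low (L-RFI) residual feed intake, the feed eaten beyond that predicted from body weight and growth. The H1 libraries used came from 11 H-RFI and 9 L-RFI steers and the ZG libraries from 10 H-RFI and 9 L-RFI steers. In all, 33 steers were sampled. Of these, 6 gave a library in both phases, and 3 of the 6 were placed in a different RFI class in ZG than in H1. The 2 libraries left out, an H1 library with 102714 reads on genes and a ZG library with 30681, fell below a minimum of 1000000.

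Skeletal muscle is a major site of nutrient use in a growing steer. Starch-rich concentrates are fermented in the rumen towards propionate, a precursor of glucose, whereas fibrous grass yields relatively more acetate. Muscle adjusts its fuel use through transcription factors and enzymes that respond to insulin, glucocorticoids, fatty acids and contraction. A further class of transcripts, the immediate early genes, is induced within minutes by many stimuli, including contraction and stress.

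Reads counted on genes ranged from 4697169 to 27803073 in H1 and from 3875025 to 49093603 in ZG. At these depths a count of 0 allows a level of up to 0.0611 to 0.774 counts per 1000000 reads on genes (CPM), which covers counting error only. Mean depth, the share of reads on no gene and the share of ambiguous reads gave adjusted p-values of 0.412, 0.826 and 0.412 between the phases in a two-sided permutation test. The share of reads mapping to several places averaged 8.78% in H1 and 6.93% in ZG (permutation p = 0.0436, adjusted p = 0.174 over 4 measures), with 1 H1 library, from steer 2102, at 35.0%. In a multidimensional scaling of the libraries used, the highest on the first axis was the ZG library of steer 5632, at 2.41. It had 6.21% of its reads on no gene. The lowest, the H1 library of steer 1656 at -1.22, had 16.9%. A relation of this axis to that share was not tested. On the second axis the ZG library of steer 5616 stood apart from the others. Its 8 measured plasma protein transcripts summed to 10843 CPM against at most 1335 in any other library used. As a check of the tissue, CSRP3 and Pln, a muscle LIM protein and an inhibitor of the calcium pump of slow and cardiac muscle, were detected in every library used.

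Of 10686 genes tested, 92 differed between ZG and H1 at an adjusted p-value below 0.1 and a fold change above 1.5, which is 0.861% of those tested. In ZG, 59 genes were higher (0.552%) and 33 were lower (0.309%). The test was limma voom with RFI class as a covariate and the steer as a block, with Benjamini-Hochberg adjustment. The consensus correlation between libraries of a steer was 0.456, and without the block 51 genes were called, of which 48 were among the 92. Without the libraries of steers 2102 (H1) and 5616 (ZG), 94 were called (58 higher and 36 lower), of which 76 were among the 92. The changes were modest, with a median fold change of 1.69 and a range of 1.51 to 3.74. The groups overlapped for each of the 92 genes. Among the 6 steers sampled in both phases, 74 of the 92 genes moved in the direction of the call in at least 5 steers and 37 in all 6. These steers were also part of the fit, so this count is a description.

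**Figure D1:**
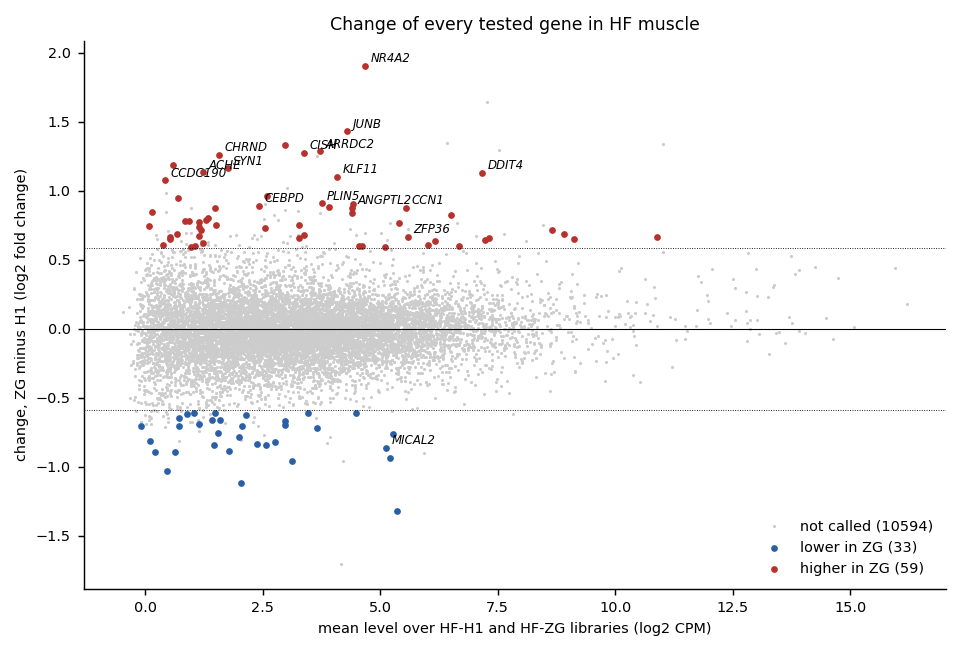
Change of each of the 10686 tested genes (log2 fold change, ZG minus H1, vertical axis) against its mean level over the HF-H1 and HF-ZG libraries (log2 CPM, horizontal axis), with dotted lines at a fold change of 1.5. The 59 genes higher and 33 genes lower in ZG are coloured, the 16 with a symbol are named, and MICAL2 is the 1 named gene that was lower.

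A symbol was available for 136 of the tested genes, all of which came from lists that the study chose on these libraries, for RFI or for the interaction of diet and breed, and a count over them is not independent evidence of a direction. Of the 136, 15 were higher in ZG and 1 was lower, and their median change was 0.18 (log2) against -0.01 over all tested genes. From the interaction list 10 of 21 tested genes were higher, and from the RFI lists alone 5 of 115 were higher and 1 was lower.

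KLF11, a Krüppel-like transcription factor involved in glucose and lipid metabolism, had the smallest p-value of all genes tested. Its level ran from 4.59 to 21.3 CPM in H1, with a median of 10.4, and from 9.12 to 38.2 in ZG, with a median of 21.8. Of the 19 ZG libraries, 10 lay above the highest H1 library and 18 lay above the H1 median. The log2 fold change was 1.10 ± 0.15 (SE, adjusted p = 0.000134), and the level rose in 6 of 6 repeat steers.

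CEBPD, a transcription factor induced by glucocorticoids and cytokines, had a median of 3.40 CPM in H1 (0.730 to 11.2) and 5.94 CPM in ZG (2.53 to 18.1). The ranges overlapped widely, yet 17 of 19 ZG libraries were above the H1 median and the change was 0.89 ± 0.22 (SE, limma adjusted p = 0.0294). DDIT4, an inhibitor of mTORC1 that is induced by glucocorticoids, energy shortage and fasting, rose as well. DDIT4 went from a median of 84.8 CPM (16.9 to 208) to one of 163 CPM (61.4 to 495). It was above the H1 median in 18 of 19 ZG libraries and rose in 6 of 6 repeat steers, with a log2 fold change of 1.13 ± 0.22 (SE, adjusted p = 0.00456). CISH, a feedback inhibitor of cytokine and growth hormone signalling through STAT5, had a median of 5.44 CPM in H1 (0.840 to 23.3) and 10.96 CPM in ZG (3.45 to 32.7). The change in CISH was 1.27 ± 0.35 (SE, adjusted p = 0.0549), upward in 6 of 6 repeat steers, and it lost its call in the edgeR quasi-likelihood test (0.86, adjusted p = 0.401). It was also lost without any 1 of 6 libraries (H1 of steers 1656, 2064, 5613 and 5635, ZG of steers 5613 and 5632), with log2 changes of 1.12 to 1.40 over the leave-one-out fits. ARRDC2, an arrestin-domain protein, was above its H1 median in 19 of 19 ZG libraries. Its medians were 7.01 CPM in H1 (3.01 to 17.5) and 18.4 CPM in ZG (8.63 to 36.4), a log2 fold change of 1.28 ± 0.20 (SE, adjusted p = 0.00033).

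**Figure D2:**
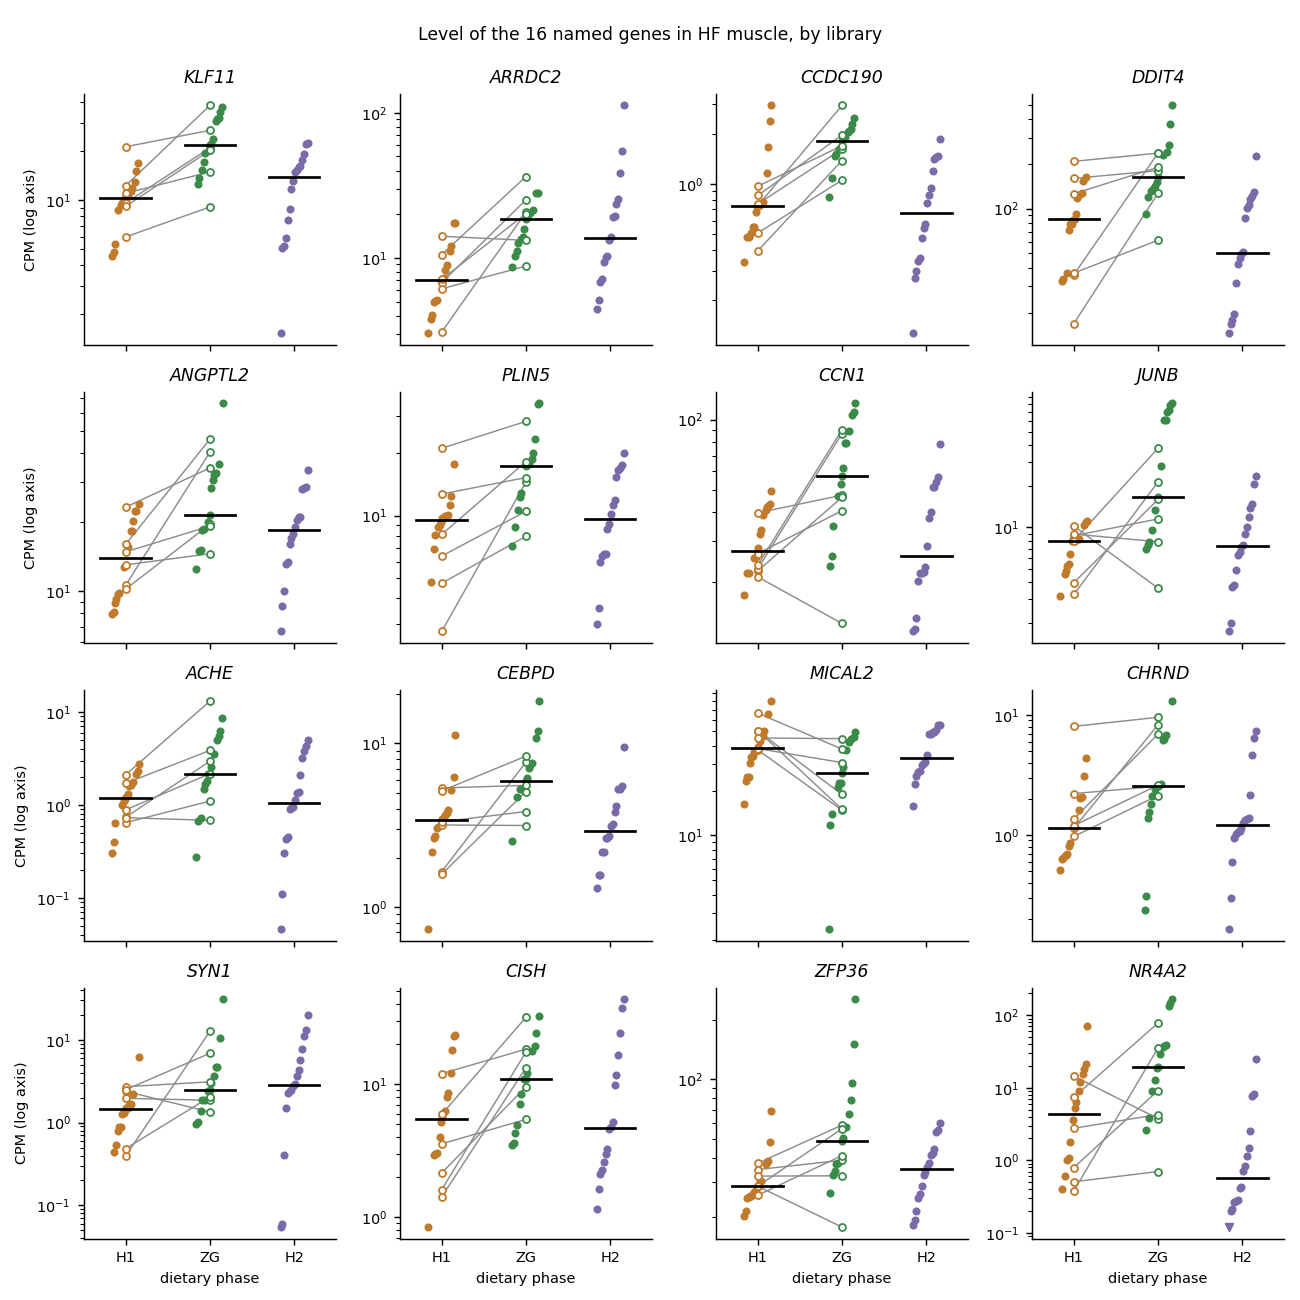
CPM (log axis) of the 16 named genes that passed the thresholds, in each HF library of H1, ZG and H2, the later finishing period on concentrates. Points are libraries, open circles joined by grey lines are the 6 steers sampled in H1 and ZG, bars are medians and the triangle marks a library at 0 (NR4A2 in H2), and the ranges of H1 and ZG overlap in every panel.

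Among genes of lipid use, PLIN5 rose. It encodes a lipid droplet protein that ties stored triglyceride to the mitochondria of oxidative tissue. The level of PLIN5 had a median of 9.51 CPM in H1 (2.78 to 21.1) and 17.4 CPM in ZG (7.15 to 34.6). The ZG levels exceeded the H1 median in 16 of 19 libraries, and the change was 0.91 ± 0.18 (SE, adjusted p = 0.00463), upward in 6 of 6 repeat steers. PDK4, the kinase that shuts off pyruvate dehydrogenase and so spares glucose, had a larger log2 difference of 1.29 ± 0.41 (SE) but did not pass (adjusted p = 0.123). Its libraries ran from 9.71 to 382 CPM in H1, with a median of 59.0, and from 29.3 to 555 CPM in ZG, with a median of 204. PDK4 was above the H1 median in 16 of 19 ZG libraries. Without the RFI covariate PDK4 passed (1.32, adjusted p = 0.0908). It also passed with the share of reads on no gene as a covariate, and in 7 of 39 leave-one-out fits. ACSM1, an acyl-CoA synthetase for medium chains, and SLC27A6, a fatty acid transporter, had log2 differences of 0.62 ± 0.47 and -0.12 ± 0.33 (SE). In the list of fatty acid uptake and oxidation, 1 of 4 tested members was called higher, and their median change was 0.76. Over all tested genes 0.552% were called higher. All 4 members are in lists that the study chose on these libraries, so that their count is not independent evidence.

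None of the 3 tested genes of fat synthesis was called, where 0.861% of all tested genes were. FASN, the enzyme that builds palmitate, had medians of 51.1 CPM in H1 (23.0 to 400) and 50.6 CPM in ZG (19.4 to 269), a log2 difference of 0.18 with a 95% interval of -0.55 to 0.91. THRSP and ELOVL6, a regulator of lipogenesis and an elongase, had differences of 0.14 ± 0.60 and -0.15 ± 0.51 (SE). Of the adipocyte markers, CIDEC, which enlarges lipid droplets, differed by 1.02 (interval -0.03 to 2.06, limma adjusted p = 0.453), and FABP4, the fatty acid carrier of fat cells, by 0.85 (interval -0.12 to 1.83, adjusted p = 0.528). Levels of CIDEC spanned 0.460 to 31.1 CPM within H1 and 0.825 to 44.0 CPM within ZG. In the adipocyte list 0 of 4 tested members passed and the median difference was 0.88. With so few members, the counts of 0 in both lists are near the share over all genes. In whole biopsies, a change in the number of cells of a type and a change in RNA per cell cannot be told apart.

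BDH1, which interconverts ketone bodies, differed by 0.63 ± 0.32 (SE, adjusted p = 0.464). FOXO1, a transcription factor of fasting and muscle breakdown, had a median of 5.02 CPM in H1 and 3.17 CPM in ZG. It was below the H1 median in 16 of 19 ZG libraries, but the difference of -0.77 ± 0.31 (SE) did not pass (limma adjusted p = 0.287) and was split 3 to 3 among the repeat steers.

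Immediate early genes formed the largest named group. Of 14 tested members 4 were higher and 0 were lower, where 0.552% of all tested genes were higher and 0.309% lower, and each of the 14 had a positive log2 difference, with a median of 0.67. Over all tested genes 5051 of 10686 had a positive difference. All 14 are in lists that the study chose on these libraries, so that their count is not independent evidence. The count of called members was 0 to 6 over the alternatives tried.

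JUNB, a subunit of the AP-1 transcription factor, had medians of 7.99 CPM in H1 (3.16 to 11.1) and 16.6 CPM in ZG (3.60 to 80.4). Of 19 ZG libraries, 13 lay above the highest H1 library while 5 lay below the H1 median, so that the ZG libraries were spread over a wide range where the H1 libraries were not. The log2 fold change was 1.43 ± 0.32 (SE, adjusted p = 0.019), upward in 4 of 6 repeat steers. CCN1, a secreted matrix-associated protein, had medians of 27.2 CPM in H1 (17.5 to 49.5) and 56.9 CPM in ZG (13.2 to 118). It exceeded the highest H1 library in 11 of 19 ZG libraries, with a change of 0.88 ± 0.19 (SE, limma adjusted p = 0.0143). ZFP36, which promotes decay of AU-rich messenger RNAs, changed by 0.67 ± 0.20 (SE, adjusted p = 0.0901), from a median of 28.6 CPM (20.1 to 69.2) to one of 48.5 CPM (17.7 to 256). NR4A2, an orphan nuclear receptor, showed the largest fold change of all called genes and the largest adjusted p-value of the named ones. Its levels ran from 0.378 to 70.3 CPM in H1, with a median of 4.38, and from 0.700 to 167 CPM in ZG, with a median of 19.5, a log2 change of 1.90 ± 0.58 (SE, adjusted p = 0.0997). When each library was left out in turn, NR4A2 kept its call in 10 of 39 fits and ZFP36 in 14 of 39, with log2 changes of 1.72 to 2.20 and 0.53 to 0.80. The other 12 named genes called at an adjusted p-value below 0.05 were not lost in any of the 39 fits.

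FOS, the partner of the JUN proteins in AP-1, had medians of 17.8 CPM in H1 (5.51 to 288) and 138 CPM in ZG (3.00 to 1237) but did not pass (1.64 ± 0.56, SE, adjusted p = 0.165). It passed in the edgeR quasi-likelihood test (2.26, adjusted p = 0.0812) and in DESeq2's Wald test (2.26, adjusted p = 0.0102). EGR1 differed by 0.48 ± 0.38 (SE), with 7 of 19 ZG libraries above the highest H1 library and 8 below the H1 median. The remaining members ran from 0.02 to 0.94 on the log2 scale.

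**Figure D3:**
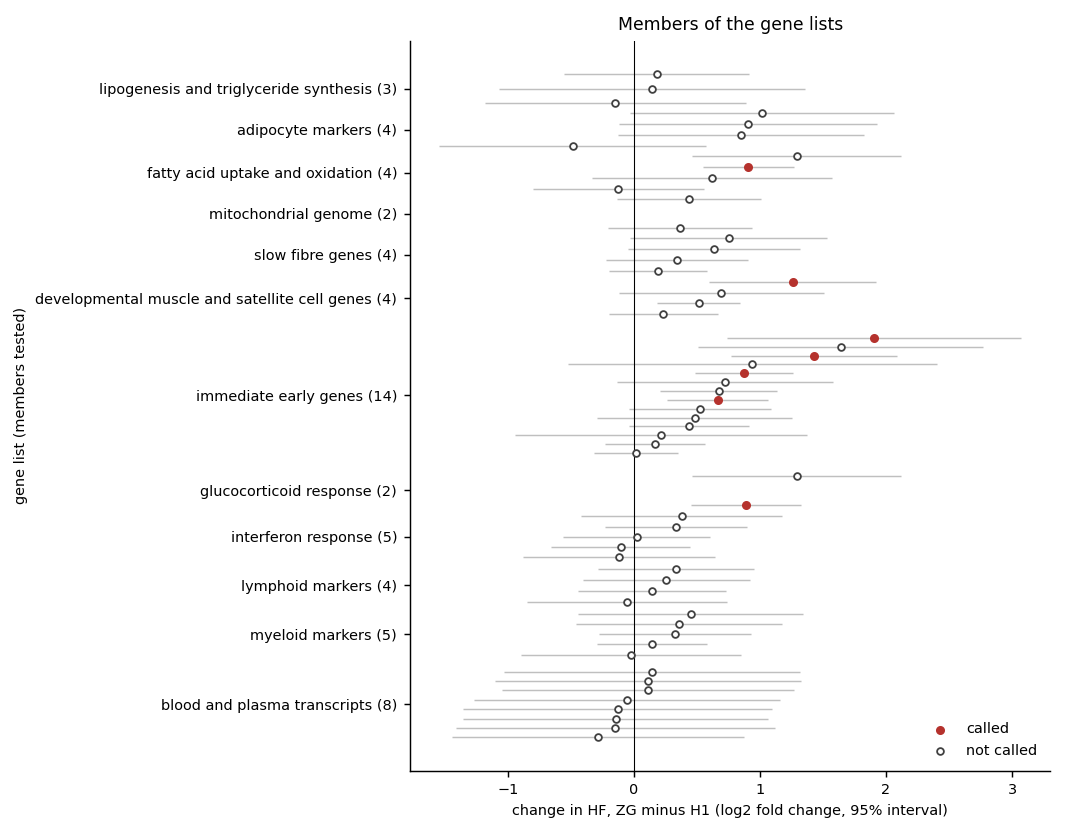
Log2 fold change (ZG minus H1) of every tested member of each gene list with at least 2 tested members, with its 95% interval, and the number tested beside each list's name. Filled points are the genes that passed the thresholds, which fell in the lists of fatty acid uptake and oxidation (1 of 4), developmental muscle genes (1 of 4), immediate early genes (4 of 14) and glucocorticoid response (1 of 2). Over all tested genes 0.861% passed, and every member shown is in a list that the study chose on these libraries.

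The called genes with a symbol also included ACHE, CHRND and SYN1, which no fixed list holds together and which are described here one by one. ACHE, which breaks down acetylcholine at the synapse, had medians of 1.18 CPM in H1 (0.303 to 2.75) and 2.17 CPM in ZG (0.275 to 13.1), a change of 1.13 ± 0.27 (SE, adjusted p = 0.0253). CHRND, the delta subunit of the muscle acetylcholine receptor, went from 1.15 CPM (0.511 to 8.03) to 2.55 CPM (0.238 to 13.0), which was 1.26 ± 0.33 (SE, limma adjusted p = 0.0406). It was above the H1 median in 17 of 19 ZG libraries and rose in 6 of 6 repeat steers. The call of CHRND was lost in limma without the steer block (1.28, adjusted p = 0.132), with no filter on low counts (1.26, adjusted p = 0.104) and in the model of all HF and CH libraries (1.26, adjusted p = 0.178). SYN1, a synaptic vesicle protein of neurons, changed by 1.16 ± 0.32 (SE, adjusted p = 0.0533), with 31.2 CPM in its highest ZG library against 6.24 CPM in its highest H1 library. Levels of these genes were low, a few CPM at most in the median library. SYN1 lost its call without either of 2 H1 libraries (steers 1656 and 2064).

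Other muscle genes mostly did not pass. MICAL2, an oxidoreductase that disassembles actin and promotes transcription through serum response factor, was the named gene that fell. Its median was 38.7 CPM in H1 (16.2 to 79.6) and 26.3 CPM in ZG (2.35 to 49.5). It fell in 6 of 6 repeat steers and by 0.86 ± 0.22 (SE, limma adjusted p = 0.0356) on the log2 scale, but its call was lost in the edgeR quasi-likelihood test (-0.59, adjusted p = 0.333). TNNT2, the cardiac troponin T of developing muscle, had a median of 1.06 CPM in H1 and 1.53 CPM in ZG (0.51 ± 0.16, SE, adjusted p = 0.122). ACTC1, the cardiac alpha-actin of immature muscle, and MYH8, the perinatal myosin, differed by 0.69 ± 0.40 and 0.23 ± 0.21 (SE). With CHRND, these are the 4 tested members of the list of developmental muscle and satellite cell genes. Of the 4, 1 was called higher, where 0.552% of all tested genes were, and all 4 are in lists that the study chose on these libraries. None of the 4 slow fibre genes passed, which is near the share of 0.861% over all tested genes. MYL6B was the nearest of the 4 at 0.75 ± 0.39 (SE, adjusted p = 0.461). MYH4, the fast IIb myosin, which is little expressed in cattle muscle, was at 2.87 CPM in H1 and 2.43 CPM in ZG at the median. The difference of MYH4 was -0.51 ± 0.17 (SE, adjusted p = 0.135), and it passed in limma with sample quality weights (-0.62, adjusted p = 0.0184). MT-ND3, a subunit of complex I encoded in the mitochondrial genome, differed by 0.44 ± 0.28 and NDUFA3, a nuclear subunit of the same complex, by 0.01 ± 0.23 (SE).

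ANGPTL2, a secreted glycoprotein expressed in fat and muscle, rose from a median of 13.9 CPM (7.92 to 24.1) to one of 21.6 CPM (12.5 to 66.3). Of 19 ZG libraries, 18 were above the H1 median, and the change of 0.87 ± 0.17 (SE, limma adjusted p = 0.00456) was upward in 6 of 6 repeat steers. CCDC190, a coiled-coil protein, rose from 0.734 CPM (0.340 to 2.95) to 1.80 CPM (0.827 to 2.96) at the median, by 1.07 ± 0.18 (SE, adjusted p = 0.000654), in 6 of 6 repeat steers.

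Of the 92 called genes, 76 bear no symbol here. The 2 of these with the smallest p-values in each direction were as follows. ENSBTAG00000001576 had medians of 13.4 CPM in H1 and 25.0 CPM in ZG (0.90 ± 0.14, SE, adjusted p = 0.00033), and ENSBTAG00000016032 had 1.96 and 3.30 CPM (0.88 ± 0.14, SE, adjusted p = 0.00033). Each was higher in ZG in 6 of 6 repeat steers. ENSBTAG00000017733 had medians of 49.5 CPM in H1 and 29.3 CPM in ZG (-0.94 ± 0.17, SE, adjusted p = 0.00147), and ENSBTAG00000002348 had 6.72 and 4.40 CPM (-0.84 ± 0.15, SE, adjusted p = 0.00147). Each of these was lower in ZG in 6 of 6 repeat steers.

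Markers of the other cell types a biopsy could hold were read beside these changes, and none of the tested ones passed. As 0.861% of all tested genes were called, 0 calls in lists this short is near that share and is no result about these cells. The lymphoid list had 0 of 4 members called, with a median difference of 0.20, and its summed level had a median of 8.23 CPM in H1 (3.83 to 31.4) and 5.63 CPM in ZG (1.81 to 64.7). CD3E of T cells differed by 0.34 ± 0.31 (SE). The myeloid list had 0 of 5 called and a median difference of 0.33, and its sum had a median of 9.40 CPM in H1 (2.74 to 35.8) and 8.09 CPM in ZG (3.59 to 57.6), CD53 of leukocytes differing by 0.33 ± 0.30. The interferon list had 0 of 5 called, 3 with a positive and 2 with a negative difference and a median of 0.02, and its sum had a median of 14.3 CPM in H1 (8.42 to 43.8) and 11.7 CPM in ZG (3.88 to 90.9). IFIT3 differed by 0.33 ± 0.28. For these 3 lists the median sum was thus lower in ZG, while the median difference of the members was not below 0. The 8 plasma protein transcripts had 0 called and a median difference of -0.09. ALB, the main plasma protein made by liver, ran from 16.3 to 894 CPM in H1 and from 13.9 to 6104 CPM in ZG, and AHSG differed by -0.28 ± 0.58 (SE). The endothelial factor SOX18, the fibroblast antigen CD248 and the matrix protein POSTN differed by -0.54 ± 0.33, 0.39 ± 0.27 and 0.11 ± 0.37 (SE), and GSTM3, a glutathione transferase, by 0.22 ± 0.30. The part of such cells in the changes above was not tested beyond these values. No named marker was at 0 in every library.

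HF steers were also sampled in a finishing period back on the concentrate diet (H2), with a weight of 611 kg (SD 49.3) at its start. The 16 HF-H2 libraries were not part of the fit, so their levels are a description. For 13 of the 16 named genes the H2 median lay nearer to that of H1 than to that of ZG on the log2 scale. The H2 median was 9.61 CPM for PLIN5, 25.9 CPM for CCN1, 7.31 CPM for JUNB and 1.04 CPM for ACHE. DDIT4, at 50.3 CPM, and NR4A2, at 0.569 CPM, were among those below both earlier medians. ARRDC2, SYN1 and ANGPTL2 were the exceptions, at 13.6, 2.87 and 18.5 CPM. Over the 92 called genes, the H2 median was nearer to H1 for 28 of the 59 that were higher in ZG and for 6 of the 33 that were lower. The 92 genes were chosen by their H1 and ZG levels, and the H2 levels were not tested. Of the 16 named genes, 10 are in the study's list for the interaction of diet and breed, which came from all its data, H2 included. H2 levels thus took part in which genes bear a symbol. PDK4, which was not called, also had its lowest HF median in H2, at 20.9 CPM.

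Whether the change differed between the RFI classes was tested by an interaction term. No gene passed (0 of 10686, or 0%, smallest adjusted p = 0.403 by limma voom), while 1300 had an unadjusted p-value under 0.05. Limma without the steer block, the edgeR quasi-likelihood test and DESeq2's Wald test also called 0, with 734, 591 and 698 genes under 0.05 unadjusted. With sample quality weights limma called 454. Of the 16 named genes, SYN1 had the smallest p-value, with a change of 0.44 in H-RFI and 1.93 in L-RFI (unadjusted p = 0.0268, adjusted p = 0.403). KLF11 changed by 1.22 in H-RFI and 0.93 in L-RFI, and JUNB by 0.92 and 2.00 (adjusted p = 0.461 for the difference). Within L-RFI libraries alone 2 genes were called and within H-RFI libraries alone 42, with 18 and 21 libraries, and those counts were not tested against each other. The genes with the 5 smallest interaction p-values bear no symbol.

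The change in HF was set against that of Charolais (CH), a beef breed, in 36 CH libraries of H1 and ZG kept on the same diets. CH steers were 283 d old (SD 18.3) at the start of the first test. They weighed 395 kg (SD 37.8) at the start of H1 and 519 kg (SD 38.3) at the start of ZG. The breeds thus also differed in mean age and weight. No gene's change differed between the breeds at the thresholds (0 of 10461, or 0%, smallest adjusted p = 0.549 by limma voom), and 284 had an unadjusted p-value under 0.05. The edgeR quasi-likelihood test and DESeq2's Wald test called 0 as well, with 561 and 390 genes under 0.05 unadjusted, while sample quality weights gave 520. The study listed 23 genes for the interaction of diet and breed, from all its data with H2 included. That list and the 0 here thus rest on different sets of libraries. Of the 90 genes called in HF and tested in both breeds, 80 changed in the same direction in CH, 49 of the 59 that were higher and 31 of 31 that were lower. Over all genes tested in both breeds, 41.7% had a positive and 58.3% a negative change in CH. The median log2 change in CH was 0.41 for the genes that were higher in HF and -0.56 for those that were lower, against 0.77 and -0.75 in HF, where the genes were chosen.

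KLF11 changed by 1.29 ± 0.17 in CH and 1.11 in HF in that model, and NR4A2 by 2.16 ± 0.67 and 2.03. CEBPD had 0.70 ± 0.24 in CH against 0.92 in HF, ANGPTL2 0.64 ± 0.19 against 0.90, and PLIN5 0.59 ± 0.22 against 0.90. The genes furthest apart were ARRDC2, with -0.04 ± 0.27 in CH and 1.21 in HF, ACHE, with -0.12 ± 0.36 and 1.13, and CHRND, with 0.05 ± 0.39 and 1.24. The difference for ARRDC2 was 1.26 (unadjusted p = 0.00163, adjusted p = 0.996 by limma voom), and 5 of the 16 named genes had an unadjusted p-value under 0.05 for it. None passed over all genes. ARRDC2 had medians of 15.9 CPM in CH-H1 and 15.4 CPM in CH-ZG, so that HF-H1, at 7.01 CPM, was the group with the lowest median of these 4.

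**Figure D4:**
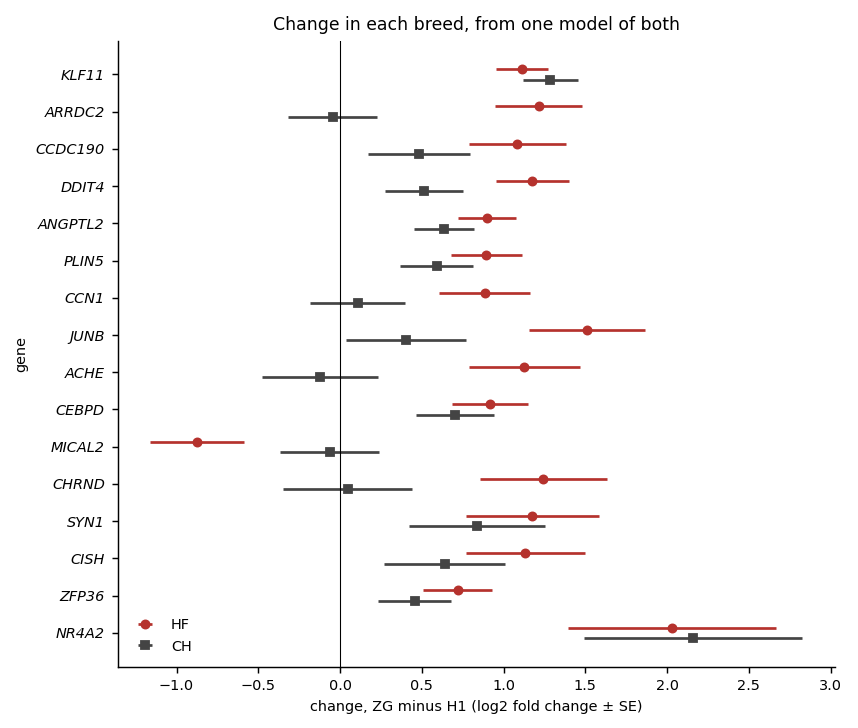
Log2 fold change (ZG minus H1, horizontal axis) of the 16 named genes in HF (circles) and CH (squares) from 1 model of 75 libraries, with bars of 1 SE. KLF11, CEBPD and NR4A2 lie close together in both breeds, and ARRDC2, ACHE and CHRND lie near 0 in CH.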

How the data were processed

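Muscle RNA was sequenced by the authors from stranded mRNA libraries. Per the labels, reads were checked with FastQC (0.11.5) and aligned with STAR (2.5.1). The labels and the methods name different bovine builds, so no coordinates are given. The deposited files hold unnormalized read counts for 24616 Ensembl genes in 3 columns, 1 per strand setting. The reverse-strand counts were used. Rows of reads on no gene, on several genes or at several places were left out of library sizes and tests.

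Libraries under 1000000 counts were dropped. A gene was kept where 50% or more of the libraries reached 1 CPM. After TMM normalization, limma voom (3.58.1) was fitted with RFI class as a covariate, and duplicateCorrelation took the steer as the block. The same animal gives the pairing, from the steer number in the titles. In 6 steers with both phases the consensus correlation was 0.456. A gene was called at a fold change above 1.5 with a Benjamini-Hochberg adjusted p-value below 0.1. Interactions of phase with RFI class and with breed used the same fit. Levels are TMM CPM over 105 libraries. Depth and 3 other library measures were compared by permutation (100000 resamples). Each steer is a separate animal. The p-values of the fits measure the spread between steers and, for the 6 sampled in both phases, also within them. The permutation test treated all libraries as independent.

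Symbols came from a table of the study that pairs them with identifiers, for 151 genes in the files, of which 136 were tested, so that most members of the 30 gene lists could not be named. The lists of glycolysis, heat shock, clock, cholesterol, amino acid, retinoid, ribosomal protein, smooth muscle and epithelial or nerve genes had 0 tested members. Named were the genes called with a symbol, and key genes of metabolism and fibre type. From a list with a called member, up to 4 members with the smallest p-values were named. From any other list only the member with the smallest p-value was added. Members and lists were chosen with earlier results of these data known. The fits were tested on simulated data. Software was R 4.3.3, edgeR 4.0.16, DESeq2 1.42.0, Python 3.11.15 and scipy 1.17.1. Alternatives were other tests, normalizations, filters, counts, covariates, library subsets and leaving out each library, and 2 chosen after seeing the data (the share of reads on no gene as a covariate, and leaving out 2 libraries that stood apart).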

Additional observations from a re-analysis of the deposited data

Results flagged for a closer look

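Within groups of 9 or 10 HF libraries, the highest or lowest library stood apart from its neighbour in 5 of 60 checks, where chance flags about 1 in 20. The H-RFI group of H1, with 11 libraries, was not checked. MICAL2 was at 2.35 CPM in the ZG library of steer 5605 and at 11.8 CPM in the next lowest of the H-RFI group. CHRND was at 0.238 CPM in the ZG library of steer 2087 and 1.37 CPM in the next of its H-RFI group, and at 0.310 CPM in that of steer 2094 and 2.12 CPM in the next of its L-RFI group. These low CHRND libraries lie against the direction of the change in CHRND, while the low MICAL2 library lies with the fall of MICAL2. In the H1 library of steer 2102, 35.0% of reads mapped to several places against 7.92% in the next highest of the L-RFI group, and ZFP36 was at 69.2 CPM against 38.4 CPM.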

How the results depend on the processing

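Each of the 16 named genes that passed kept its sign under every alternative fit, and the call was lost in 83 of 272 values. Outside the fits of fewer libraries, the lost calls were those of MICAL2, CISH, CHRND, SYN1, ZFP36 and NR4A2 under 1 or more settings, and of CCDC190, CCN1 and ACHE in the model of all HF and CH libraries. The 92 calls (59 higher, 33 lower in ZG) became 51 (34 and 17) without the replicate block, where the steer is ignored, and 0 (0 and 0) when the steer was a fixed term in the edgeR quasi-likelihood test on the 6 paired steers (500 genes had p under 0.05 unadjusted). Counts were 56 (13 lower) in the edgeR quasi-likelihood test, 40 (25 and 15) in 1 model of all HF and CH libraries, 7 (7 and 0) in steers with 1 phase only, 2 (1 and 1) in L-RFI libraries, 42 (20 higher) in H-RFI libraries, 220 (133 and 87) with no fold limit, and 143 (58 lower) with the share of reads on no gene as a covariate, an alternative chosen after seeing the data. The split of calls moved to 76.8% higher in the edgeR test and 47.6% in H-RFI libraries, against 64.1% in the main fit. The cause was not tested. The subsets hold 12 to 27 libraries, while the edgeR test and the fit without the block used all 39 and the model of both breeds 105. DESeq2's Wald test called 93 and the other settings 70 to 127, and leaving out each library in turn 77 to 105. With sample quality weights the interactions with RFI class and breed gave 454 and 520 genes, against 0.

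The signs that changed belong to genes that did not pass. In L-RFI libraries they were ALB (-0.062), POSTN (-0.71), GSTM3 (-0.031), IFIT3 (-0.51), CD3E (-0.44), CD53 (-0.48) and SOX18 (0.13). In H-RFI libraries they were FASN (-0.33), THRSP (-0.16), EGR1 (-0.11), ALB (-0.10), SLC27A6 (0.59), NDUFA3 (-0.042) and CD248 (-0.11). In steers with 1 phase they were ELOVL6 (0.018), MYH8 (-0.20), IFIT3 (-0.16), CD3E (-0.087), CD53 (-0.11) and AHSG (0.18). Quality weights reversed ELOVL6 (0.22), ALB (-0.35), NDUFA3 (-0.11) and GSTM3 (-0.16). The paired fit reversed ALB (-0.14) and POSTN (-0.47), and leaving out the libraries of steers 5616 and 2102 reversed ALB (-0.18) and POSTN (-0.023). DESeq2 gave ALB -0.22 and AHSG 0.20, the edgeR test AHSG 0.22, no RFI covariate POSTN -0.027, and the covariate of reads on no gene NDUFA3 -0.045. A count of 0 allows up to 0.0611 to 0.774 CPM, close to the lowest levels of genes near 1 CPM such as CCDC190 and ACHE.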
